A study of Macaca mulatta with 12 samples.

Results

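The 2 muscle profiles were compared with the 2 neural profiles, occipital lobe and spinal cord, among the 12 small RNA profiles of 8 tissues that the study sequenced from Macaca mulatta. All 4 profiles came from untreated wild-type animals with an age of 36 months, and the 12 profiles came from 2 animals, without a label that ties a profile to an animal. They were chosen by tissue alone. The numbers 1 and 2 of the muscle profiles do not name separate animals, and occipital lobe and spinal cord have 1 profile each. The p-values below therefore measure a spread between profiles, which may be technical where the profiles share a tissue. That spread was estimated over all 12 profiles in 7 groups, with 5 residual degrees of freedom. The 4 profiles alone would give 2 of them. In the neural group the spread holds the difference between occipital lobe and spinal cord. The 4 profiles had 22949856 to 23970068 valid reads, so that 1 read stood for 0.417 to 0.436 RPTM, which are reads per 10000000 valid reads. Between 56.2% and 60.6% of their reads fell on mature miRNAs, when a read had to match the pre-miRNA exactly with both ends within 2 nucleotides of the mature miRNA. Of the 771 mature sequences with at least 1 read, 370 passed the filter on low values, with a mean of 5 RPTM or more and a standard deviation of 1 RPTM or more over the 12 profiles.

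Skeletal muscle is known for the myomiRs, which are transcribed with myosin genes or from muscle-specific clusters. Neurons are known for miR-124, miR-9, miR-128 and miR-129, and oligodendrocytes, the cells that make myelin, for miR-219 and miR-338. A miRNA finds its targets mainly through its seed, bases 2 to 8 from the 5′ end, so that miRNAs with the same seed are put in 1 family. The sequences below were taken from the list of mature miRNAs of the study, with the seed in capitals. The first are the myomiRs, in which miR-1 and miR-206 share a seed and miR-133b and miR-133c share another.

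mml-miR-1-3p: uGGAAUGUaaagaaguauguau
mml-miR-206-3p: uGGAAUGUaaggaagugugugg
mml-miR-133b-3p: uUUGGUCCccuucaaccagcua
mml-miR-133c-3p: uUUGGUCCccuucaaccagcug
mml-miR-208b-3p: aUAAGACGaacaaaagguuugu
mml-mir-499-5p: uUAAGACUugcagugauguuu

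The next are 5 of the miRNAs with far fewer reads in muscle than in neural tissue. The 2 arms of mir-9 have different seeds.

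mml-miR-9-5p: uCUUUGGUuaucuagcuguauga
mml-miR-9-3p: aUAAAGCUagauaaccgaaagua
mml-miR-129-1-5p: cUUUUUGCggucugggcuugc
mml-miR-219-2-3p: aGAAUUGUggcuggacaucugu
mml-miR-1224-5p: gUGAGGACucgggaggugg

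The last are miRNAs that carry much of the reads of a side, and a pair of miRNAs that share a seed and were higher on opposite sides.

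mml-miR-10b-5p: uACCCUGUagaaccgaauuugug
mml-miR-196a-5p: uAGGUAGUuucauguuguugg
mml-miR-181a-5p: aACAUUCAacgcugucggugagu
mml-miR-92a-3p: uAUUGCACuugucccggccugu
mml-miR-92b-3p: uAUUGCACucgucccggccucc

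Muscle and neural tissue differed in most of the 370 tested miRNAs. In edgeR's quasi-likelihood test with Benjamini-Hochberg adjustment, 123 miRNAs (33.2%) were higher in muscle and 132 (35.7%) were higher in neural tissue at an adjusted p under 0.05. The largest differences belonged to the myomiRs and miR-196 on the muscle side, and to miR-219, miR-124, miR-9 and miR-129 on the neural side, with miR-1224, which had no read in muscle. The counts on the muscle side depended on the scaling. The trimmed mean of M-values (TMM) factors were 0.938 and 0.964 for muscle, 2.26 for occipital lobe and 2.48 for spinal cord, which moved the log2 fold changes by a median of 1.31 toward muscle. With valid reads as the only scaling, 55 miRNAs were higher in muscle and 174 in neural tissue, so that 24.0% instead of 48.2% of the calls were on the muscle side. All of these 55, which are 14.9% of those tested, and all 132 called in neural tissue with TMM were called the same way under both scalings, and they are named as held under both scalings below. In RPTM, both neural profiles were above both muscle profiles in 212 miRNAs (57.3%), and both muscle profiles were above both neural profiles in 92 (24.9%). The 132 miRNAs called higher in neural tissue were all among the first, and 91 of the 123 called higher in muscle were among the second. Of the others, 31 overlapped between the sides, and miR-186-5p had more RPTM in both neural profiles than in both muscle profiles. The median absolute difference of log2(RPTM + 1) was 0.46 between the muscle profiles, 0.82 between the neural profiles and 2.35 between a muscle and a neural profile.

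**Figure D1:**
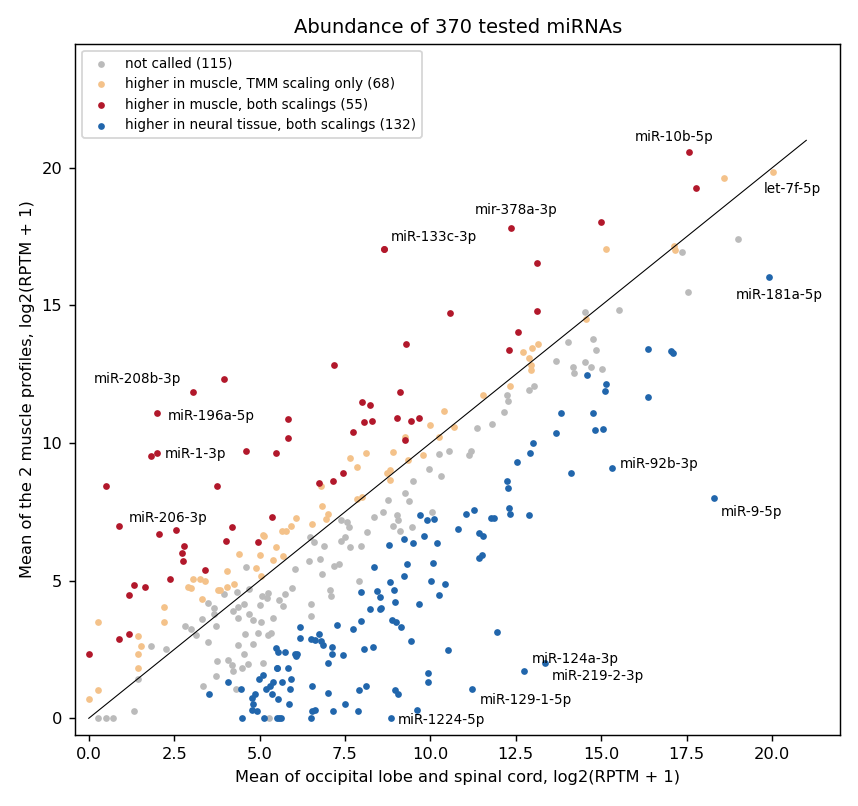
Mean abundance of each of the 370 tested miRNAs in the 2 muscle profiles (y axis) against the 2 neural profiles (x axis), both as log2(RPTM + 1), with 1 point per miRNA and equal values on the line. The 55 miRNAs higher in muscle under both scalings lie above the line, the 132 higher in neural tissue below it, and many of those called with TMM alone lie close to it.

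The myomiRs were all higher in muscle. Of the 17 mature sequences in the list of muscle miRNAs, 14 had a read in the series and 8 passed the filter. All 8 rose in muscle under both scalings, against 14.9% of the 370 tested. Their median log2 fold change was 9.79, against -0.09 over the 370 tested. Some of the 8 passed the filter through the muscle profiles alone, such as miR-206-3p with at most 1.23 RPTM in the other 8 profiles. Their direction was fixed by the filter, so 8 of 8 is a description and not support. In these bulk samples fewer cells of a type and less RNA per cell cannot be told apart. The miR-133 family represses genes of proliferation and of other lineages in muscle. miR-133c-3p had 129693 and 144682 RPTM in muscle, 86.0 in occipital lobe and 710 in spinal cord. It differed by 9.80 ± 1.01 on the log2 scale (SE, edgeR adjusted p = 6.16e-05). miR-133a-3p had almost the same values, since its sequence is that of miR-133c-3p without the first base and nearly 100% of its reads were also counted for miR-133c-3p. When a read was counted only for the nearest mature miRNA, miR-133c-3p had 79804 and 92137 RPTM in muscle and differed by 9.19 on the log2 scale. In the same count miR-133a-3p had 49899 and 52554 RPTM in muscle and differed by 10.54 on the log2 scale. miR-133b-3p was less abundant, with 3772 and 6480 RPTM in muscle, 9.13 in occipital lobe and 20.1 in spinal cord, and differed by 9.78 ± 0.69 on the log2 scale (edgeR adjusted p = 8.61e-06). The other arm of mir-133c, miR-133c-5p, had 375 and 325 RPTM in muscle, no read in occipital lobe and 2 reads in spinal cord, which is a ratio of 823 with a 95% interval of 227 to 6801 from the counts alone.

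miR-1, which promotes muscle differentiation, had 940 and 527 RPTM in muscle, 0.435 in occipital lobe and 4.60 in spinal cord. It stood at 9.46 ± 1.06 on the log2 scale (edgeR adjusted p = 9.34e-05). miR-206-3p, which shares its seed and is known from skeletal muscle, had 117 and 137 RPTM in muscle and at most 1.30 in the neural profiles. The difference was 8.34 ± 1.08 on the log2 scale (edgeR adjusted p = 0.000371). Both miRNAs begin with the same bases as the 3′ adapter given in the methods of the study, and whether the removal of the adapter took part of their reads was not tested, so their levels may be too low. The labels give only muscle as the tissue. miR-208a-3p, the myomiR of the heart, had 2 reads in each muscle profile and none in the neural profiles, and did not pass the filter.

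The miRNAs of the myosin genes were also higher. miR-208b, which lies in MYH7, the gene of slow myosin, had 2114 and 5326 RPTM in muscle, 7.82 in occipital lobe and 6.69 in spinal cord, with a log2 fold change of 10.28 ± 0.90 (edgeR adjusted p = 3.35e-05). miR-499, which lies in MYH7B, had 536 and 1061 RPTM in muscle, 29.99 in occipital lobe and 57.3 in spinal cord. Its log2 fold change of 5.52 ± 0.68 (edgeR adjusted p = 0.000154) was the smallest of the 8 in the list. The neural levels of miR-499 and miR-208b were above the highest of the other 8 profiles, which was 10.2 RPTM for the former and 4.25 for the latter. None of the 8 calls was lost in the alternatives in which the miRNA was tested.

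**Figure D2:**
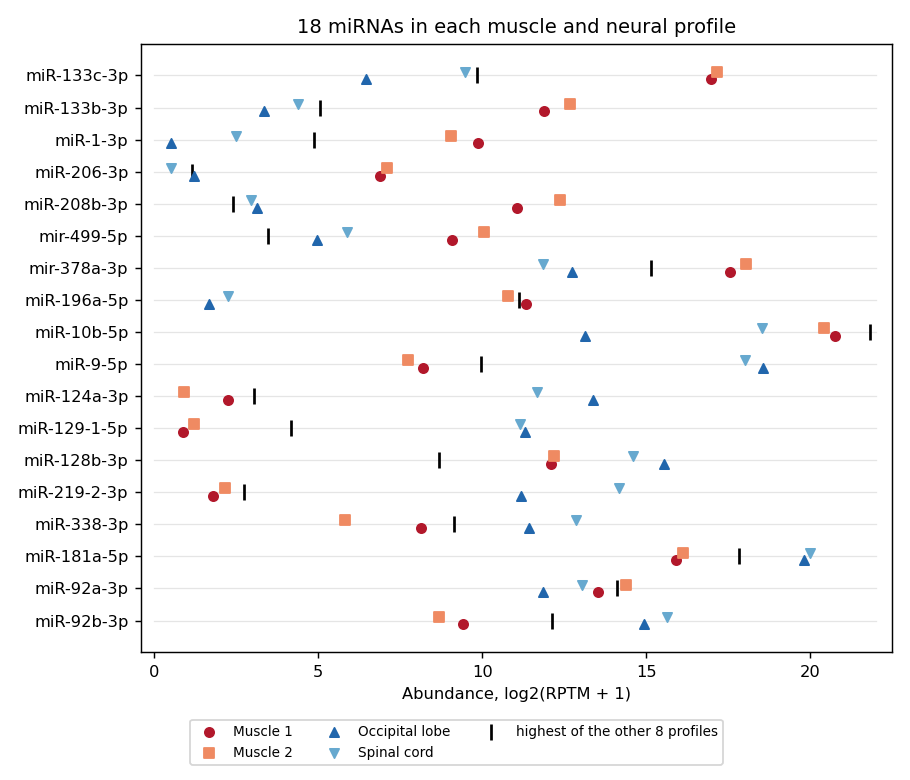
Abundance of 18 miRNAs in each of the 4 profiles as log2(RPTM + 1), with 1 symbol per profile and a black tick for the highest of the other 8 profiles. The muscle symbols of the 6 myomiRs lie far to the right of both neural symbols, and for miR-10b-5p the spinal cord lies between the muscle profiles and occipital lobe.

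The miR-378 family, known from mitochondrial metabolism, was abundant in muscle. All 4 tested members of 14 in the list were higher in muscle under both scalings, against 14.9% of all tested miRNAs. Their median log2 fold change was 6.52. mir-378a-3p had 193141 and 266854 RPTM in muscle, 6742 in occipital lobe and 3716 in spinal cord, and the highest of the other 8 profiles had 35785. Its log2 fold change was 6.75 ± 0.62 (edgeR adjusted p = 3.55e-05). miR-378d-3p had a larger log2 fold change of 6.96, but 96.0% of its reads were shared with another mature miRNA, and with the nearest miRNA alone it had 298 and 262 RPTM in muscle and 15.2 and 5.44 in the neural profiles.

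The miRNAs of the HOX clusters were higher in muscle, those of miR-196 with hardly a read in either neural tissue and those of miR-10 with intermediate levels in spinal cord. These miRNAs follow the position along the body axis, and mir-10a lies in HOXB3, mir-10b in HOXD4 and mir-196b between HOXA10 and HOXA9. Of the 8 mature sequences in the list, 6 passed the filter. Over all tested miRNAs, 33.2% were higher in muscle with TMM and 14.9% under both scalings. In the list all 6 were higher in muscle with TMM, with a median log2 fold change of 3.94. Under both scalings 3 of these calls held, and the same number of calls was left without Muscle1 or without Muscle2. miR-196a-5p had 2584 and 1758 RPTM in muscle, 2.17 in occipital lobe and 3.76 in spinal cord, with the largest log2 fold change on the muscle side, 10.79 ± 1.61 (edgeR adjusted p = 0.000366). miR-196b-5p had 968 and 609 RPTM in muscle and at most 3.48 in the neural profiles, and differed by 9.31 ± 1.33 on the log2 scale (edgeR adjusted p = 0.000297). Both were thus nearly absent from the 2 neural profiles.

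miR-10b-5p was the most abundant miRNA of muscle, at 29.6% and 23.3% of the assigned reads. It had 1744757 and 1408966 RPTM in muscle, 8946 in occipital lobe and 379494 in spinal cord, and up to 3705808 in the other 8 profiles. Its log2 fold change was 4.40 ± 1.29 (edgeR adjusted p = 0.0133), with an adjusted p of 0.049 with valid reads alone. miR-10a-5p had 113791 and 156006 RPTM in muscle, 1146 in occipital lobe and 70444 in spinal cord. Its call (edgeR adjusted p = 0.0407) was lost with valid reads alone (edgeR adjusted p = 0.19) and without either muscle profile. The same call was lost in the fit on the 4 profiles alone and with a mean of at least 50 RPTM as the filter. The star arms were low. miR-10b-3p had 35.04 and 29.2 RPTM in muscle, 14.6 in spinal cord and no read in occipital lobe. miR-10a-3p had 5.42 and 4.79 RPTM in muscle, 3.76 in spinal cord and no read in occipital lobe. Both calls were lost with valid reads alone, in the fit on the 4 profiles alone and without either muscle profile. That of miR-10a-3p was also lost without occipital lobe.

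The miRNAs of neurons were all higher in neural tissue. Of the 33 mature sequences in the list of neuronal miRNAs, 30 had a read and 20 passed the filter. All 20 rose in neural tissue under both scalings, against 35.7% of all tested miRNAs. Their median log2 fold change was -4.95, or -4.59 when miRNAs without a muscle read were set to their lower bound. Some of the 20, such as miR-129-1-3p and miR-488-3p, passed the filter through the neural profiles alone. These 2 had no read in muscle and at most 1.61 and 0.850 RPTM in the other 8 profiles. The filter fixed the direction of such members, so 20 of 20 is a description and not support. miR-9, which acts in neural progenitors and neurons, was the most abundant. miR-9-5p had 294 and 213 RPTM in muscle, 383871 in occipital lobe and 261318 in spinal cord. Its log2 fold change was -9.01 ± 0.54 (edgeR adjusted p = 4.9e-06). The other arm, miR-9-3p, had 1 read in the 2 muscle profiles against 688 and 855 RPTM in the neural profiles, which is a ratio of 3627 with a 95% interval of 651 to 143309 from the counts alone. miR-124a-3p, which represses non-neuronal genes in neurons, had 3.75 and 0.871 RPTM in muscle, 10508 in occipital lobe and 3278 in spinal cord, with a log2 fold change of -10.22 ± 0.91 (edgeR adjusted p = 3.35e-05). Both neural profiles lay far above both muscle profiles in each of these.

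miR-129-1-5p had 0.834 and 1.31 RPTM in muscle and 2539 and 2260 in the neural profiles, and differed by -9.76 ± 0.62 on the log2 scale (edgeR adjusted p = 4.9e-06). miR-129-2-3p had 1.67 and 1.31 RPTM in muscle and 1077 and 859 in the neural profiles. Its sister miR-129-1-3p had no read in muscle and 116 and 64.8 RPTM in the neural profiles, at least 140-fold higher when the muscle side was set to 3 reads over both profiles. In the same way miR-488-3p, which lies in ASTN1, a gene of neuronal migration, was at least 69.0-fold higher, with 44.8 and 43.5 RPTM in the neural profiles. The remaining neuronal miRNAs had smaller differences. miR-383-5p and miR-138-1-5p stood at -7.47 and -6.93, and miR-153-3p, from the 2 PTPRN genes of secretory vesicles, at -5.52 on the log2 scale. miR-218-5p had 50.5 RPTM in Muscle1 and 6.10 in Muscle2 against 1634 and 1101 in the neural profiles. miR-132-3p and miR-212-3p, which are neighbours and respond to neuronal activity, had log2 fold changes of -3.33 and -2.99, and miR-132-5p of -4.38, the last of which was not called without Muscle1 (edgeR adjusted p = 0.0526).

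miR-128 and miR-149 were not near absent from muscle. miR-128b-3p, from ARPP21, had 4364 and 4645 RPTM in muscle, 47190 in occipital lobe and 24828 in spinal cord, and at most 411 in the other 8 profiles. Its log2 fold change was -1.70 ± 0.41 (edgeR adjusted p = 0.00537), and it was not called without occipital lobe or from reads on 1 mature sequence alone. miR-128a-3p, from R3HDM1, shared 74.8% of its reads with it and differed by -1.92 ± 0.42 (edgeR adjusted p = 0.00308), a call lost with identical reads alone (edgeR adjusted p = 0.0633). With the nearest miRNA alone it had 1537 and 1386 RPTM in muscle and 12406 and 4326 in the neural profiles. miR-149-5p, from GPC1, had 72.2 and 123 RPTM in muscle, 3436 and 2565 in the neural profiles, and at most 36.4 in the other 8 profiles. Of the star arms, miR-128a-5p stood at -2.79, miR-128b-5p at -1.45 and miR-153-1-5p at -2.68 on the log2 scale. The call of miR-128a-5p was lost with identical reads alone (edgeR adjusted p = 0.187). The call of miR-128b-5p was lost when either muscle profile or occipital lobe was left out. It was also lost with identical reads alone and in the fit on the 4 profiles alone. The call of miR-153-1-5p was lost without Muscle1 or occipital lobe.

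The miRNAs of oligodendrocytes were also higher in neural tissue, with more in spinal cord than in occipital lobe. All 4 tested members of 6 rose in neural tissue under both scalings, against 35.7% of all tested miRNAs. Their median log2 fold change was -6.23. Of the 4, miR-219-2-3p and miR-219-1-5p had at most 5.65 and 1.75 RPTM in the other 8 profiles. Both passed the filter through the neural profiles alone, which fixed their direction, so 4 of 4 is a description and not support. miR-219-2-3p, which promotes the differentiation of oligodendrocytes, had 2.50 and 3.49 RPTM in muscle, 2329 in occipital lobe and 18456 in spinal cord. It stood at -10.38 ± 1.12 on the log2 scale (edgeR adjusted p = 8.42e-05). miR-219-1-5p had 1.67 RPTM in Muscle1 and no read in Muscle2, against 121 in occipital lobe and 943 in spinal cord, with a log2 fold change of -7.85 ± 1.30 (edgeR adjusted p = 0.000649). miR-338-3p, which lies in AATK, had 282 and 54.9 RPTM in muscle, 2765 in occipital lobe and 7468 in spinal cord, and differed by -3.56 ± 0.77 on the log2 scale (edgeR adjusted p = 0.00307). Its other arm, miR-338-5p, stood at -4.60 ± 0.81 (edgeR adjusted p = 0.000867). The whole list summed to 296 RPTM in Muscle1 and 64.1 in Muscle2, against 5363 in occipital lobe and 27375 in spinal cord.

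Other miRNAs with no muscle read were outside these lists. miR-1224-5p, from within VWA5B2, had no read in muscle against 668 RPTM in occipital lobe and 248 in spinal cord, at least 711-fold higher. miR-548h-3p had 15.6 RPTM in occipital lobe and 82.0 in spinal cord, at least 77.3-fold higher, and miR-135a-5p had 8.26 and 84.1, at least 73.3-fold higher. In all, 11 of the 370 tested miRNAs had no read in either muscle profile, of which 7 were called, and 2 had no read in either neural profile.

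The imprinted DLK1-DIO3 cluster, a large group of miRNAs expressed from the maternal chromosome, was higher in neural tissue. Of its 90 mature sequences, 85 had a read and 45 passed the filter. Of these 45, 37 rose in neural tissue under both scalings, against 35.7% of all tested miRNAs, and 8 did not pass the test. The median log2 fold change was -3.09. Both neural profiles were above both muscle profiles in 44 of the 45, against 57.3% of all tested miRNAs. The exception, miR-431-5p, had 17.1 and 17.0 RPTM in muscle and 8.69 and 11.7 in the neural profiles. A member low in muscle could pass the filter on the mean of the 12 profiles through the neural profiles alone. A member low in all profiles could not pass it. These shares therefore describe the 45 tested members and are not support for the whole cluster. The members were low in muscle, with a median of 4.27 RPTM over the members against 71.3 in neural tissue. miR-758-3p, as an example, had 1 read in the 2 muscle profiles and 81.3 and 113 RPTM in the neural profiles, while miR-411-5p had 2481 and 1871 RPTM in muscle and 32770 and 22561 in the neural profiles, with a log2 fold change of -2.36 ± 0.36 (edgeR adjusted p = 0.000392).

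**Figure D3:**
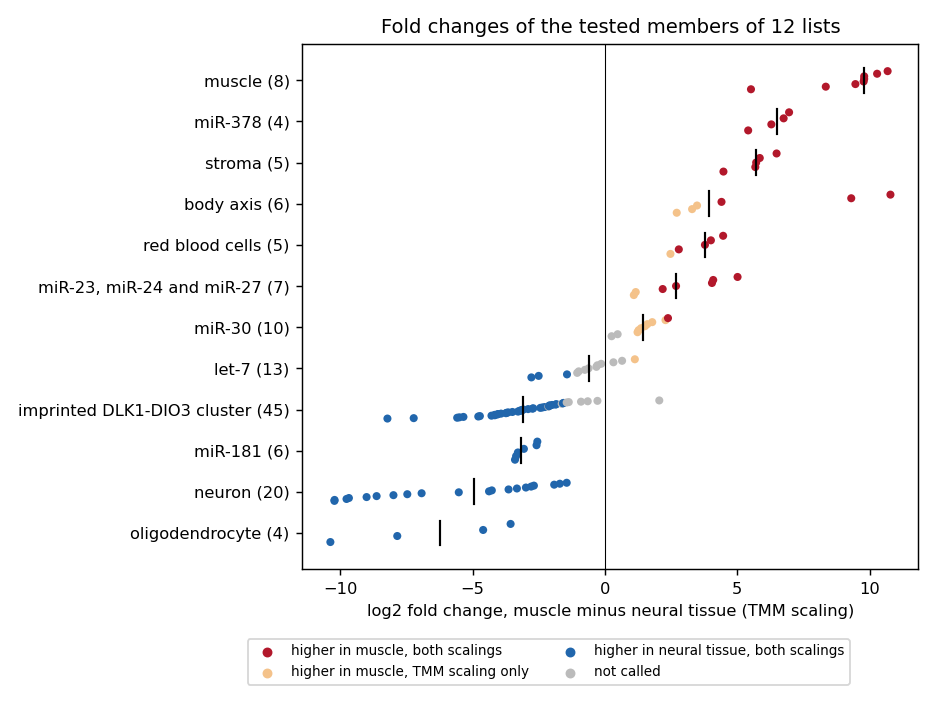
Log2 fold changes (muscle minus neural tissue, TMM scaling) of the tested members of 12 lists, 1 point per miRNA and a black bar for the median, with the number of tested members in brackets. The medians run from 9.79 for the muscle list to -6.23 for the oligodendrocyte list, and most members of the miR-30 list were called with TMM alone.

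The seed families showed where the reads of each side went. Of the 297 families tested, 84 (28.3%) were higher in muscle and 118 (39.7%) in neural tissue, and 45 of the former and all of the latter held under both scalings. The let-7 family, a set of miRNAs abundant in differentiated tissues, took 19.4% and 21.1% of the assigned reads in muscle, 42.5% in occipital lobe and 28.7% in spinal cord, and was not called (log2 fold change 0.26 ± 0.42, edgeR adjusted p = 0.594). With valid reads alone its direction turned and it was not called either (log2 fold change -0.74, edgeR adjusted p = 0.119). The miR-181 family, known from lymphocytes and from neurons, took 1.11% and 1.27% in muscle against 18.1% and 20.2% in the neural profiles, and stood at -2.92 ± 0.40 (edgeR adjusted p = 0.000236). The miR-10 family had the opposite pattern, with 31.5% and 25.8% in muscle, 0.18% in occipital lobe and 7.77% in spinal cord. Its call (log2 fold change 3.96 ± 1.26, edgeR adjusted p = 0.0187) was not made with valid reads alone (edgeR adjusted p = 0.0511). The miR-30 family was even, at 2.94% to 3.15% in all 4 profiles, and its call toward muscle (log2 fold change 1.06 ± 0.35, edgeR adjusted p = 0.0215) was lost with valid reads alone (log2 fold change 0.05, edgeR adjusted p = 0.915). The 3 families with the largest fitted log2 fold changes toward muscle were those of miR-133c-5p (10.41), miR-208b-3p (9.97) and miR-196 (9.96). Those toward neural tissue were the families of miR-1224-5p, miR-219-2-3p (-10.70) and miR-9-3p (-10.50). The first of these had no read in muscle, so that its fitted value is no measure of size and its place in the order is not known. The places of miR-133c-5p, with 2 reads in the neural profiles, and of miR-9-3p, with 1 read in muscle, are also uncertain.

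**Figure D4:**
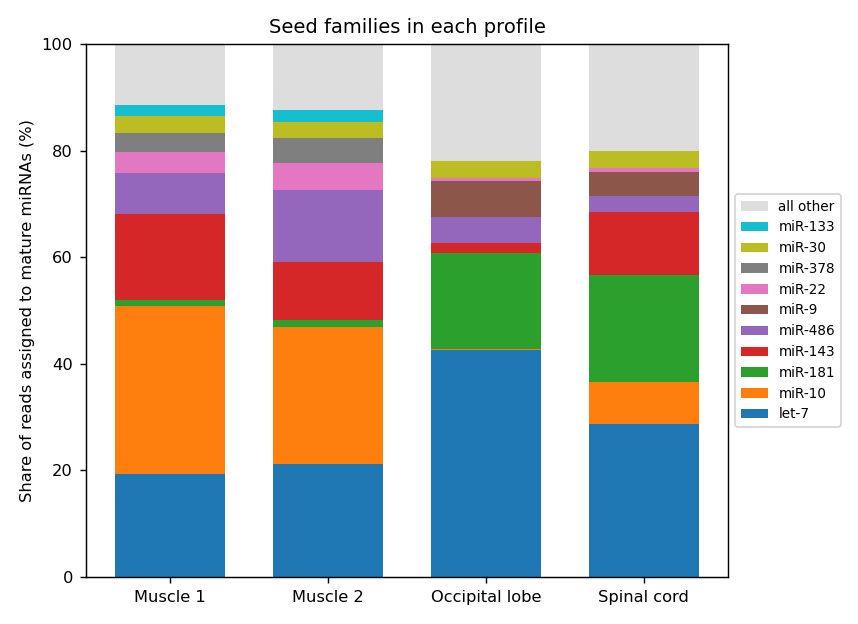
Share of the reads assigned to mature miRNAs (y axis, %) that 10 seed families took in each of the 4 profiles, with all other families in grey. The miR-10 family filled 31.5% and 25.8% of the muscle profiles, and the miR-181 family 18.1% and 20.2% of the neural profiles.

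Within single miRNAs, the most abundant of neural tissue were let-7f-5p, miR-181a-5p, let-7a-5p, miR-143-3p and miR-9-5p, and those of muscle were miR-10b-5p, let-7f-5p, miR-143-3p, miR-486-5p and miR-22-3p. miR-181a-5p had 61454 and 71614 RPTM in muscle and 906543 and 1043946 in the neural profiles, and differed by -2.55 ± 0.44 on the log2 scale (edgeR adjusted p = 0.000806). All 6 tested members of the miR-181 list of 8 rose in neural tissue under both scalings, against 35.7% of all tested miRNAs. miR-22-3p had 232300 and 303009 RPTM in muscle, 22881 in occipital lobe and 42612 in spinal cord, with a log2 fold change of 4.36 ± 0.44 (edgeR adjusted p = 6.16e-05). let-7f-5p had 884449 and 1017168 RPTM in muscle, 1249023 in occipital lobe and 895617 in spinal cord, so the sides overlapped. It was called higher in muscle with TMM (log2 fold change 1.13 ± 0.44, edgeR adjusted p = 0.0439), and the direction turned with valid reads alone (log2 fold change -0.17, edgeR adjusted p = 0.711). miR-143-3p, a miRNA of smooth muscle, had 946137 and 657534 RPTM in muscle, 103028 in occipital lobe and 683533 in spinal cord, so the sides overlapped. Its call (edgeR adjusted p = 0.0208) was lost with valid reads alone, in the fit on the 4 profiles alone and without Muscle1.

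Of the 47 seed families with at least 2 tested members, 3 had members called on opposite sides. In the family of miR-92, miR-92b-3p had 680 and 409 RPTM in muscle and 31071 and 50689 in the neural profiles, and differed by -4.89 ± 0.55 on the log2 scale (edgeR adjusted p = 9.34e-05). miR-92a-3p had 11711 and 21533 RPTM in muscle and 3693 and 8442 in the neural profiles, and differed by 2.79 ± 0.46 (edgeR adjusted p = 0.000619). Both calls held under both scalings, while the whole family was not called (log2 fold change -0.16 ± 0.36, edgeR adjusted p = 0.713) and was called toward neural tissue with valid reads alone (log2 fold change -1.17, edgeR adjusted p = 0.0207). The other members were miR-25-3p (log2 fold change 1.19), miR-32-5p (1.92) and miR-363-3p (-1.35). miR-25-3p and miR-32-5p were called with TMM but not with valid reads alone, and both calls were also lost in the fit on the 4 profiles alone. miR-363-3p was not called in the main fit with TMM. It was called toward neural tissue with valid reads alone (edgeR adjusted p = 0.0046). The same miRNA was also called with DESeq2 and, with TMM, when a read was counted only for the nearest mature miRNA. In the let-7 family, let-7e-5p had 10704 and 9222 RPTM in muscle and 156212 and 124112 in the neural profiles (log2 fold change -2.51 ± 0.39, edgeR adjusted p = 0.000435). let-7b-5p stood at -1.43 ± 0.40 (edgeR adjusted p = 0.0101), a call lost without Muscle2 or occipital lobe and in the fit on the 4 profiles alone. The opposite call, that of let-7f-5p, depended on the scaling as above and was kept in only 5 of 14 alternatives. It was also lost in the fit on the 4 profiles alone, without a filter and with a mean of at least 50 RPTM. Counting a read only for the nearest mature miRNA lost it too. The other members, let-7a, let-7c, let-7d, let-7g, let-7i and miR-98, did not pass the test, with log2 fold changes of -0.76 to 0.32, and all but let-7d were called toward neural tissue with valid reads alone. In the third family, miR-219-1-5p shared its seed with miR-508-3p, which had 28.8 and 22.7 RPTM in muscle and 3.04 and 10.9 in the neural profiles, with a log2 fold change of 3.21 ± 0.84 (edgeR adjusted p = 0.00806) that was not called with valid reads alone. Their sequences are set side by side to show the shared seed and the different remainder.

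mml-let-7e-5p: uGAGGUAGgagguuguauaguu
mml-let-7f-5p: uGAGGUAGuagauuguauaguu
mml-miR-219-1-5p: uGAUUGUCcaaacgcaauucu
mml-miR-508-3p: uGAUUGUCgccuuuuugaguaga

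Other families were counted in the same way, to be read against the 33.2% of all tested miRNAs that were higher in muscle with TMM, the 14.9% under both scalings, and the 35.7% that were higher in neural tissue. In the list of miR-23, miR-24 and miR-27, all 7 tested members were higher in muscle with TMM and 5 under both scalings. In the miR-17-92 list 8 of 12 were higher with TMM and 1 under both, and in the miR-30 list 8 of 10 and 1. In the list of miR-99, miR-100 and miR-125, 4 of 10 rose in neural tissue under both scalings and 6 did not pass the test, a share near that of all tested miRNAs. In the miR-29 list 1 of 4 was higher in muscle with TMM alone. Of the 13 tested members in the let-7 list, which holds both arms, 3 rose in neural tissue under both scalings and 1 was higher in muscle with TMM alone.

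Markers of other cell types differed between the sides, and between the 2 muscle profiles. The 5 miRNAs in the list of red blood cells summed to 453914 RPTM in Muscle1, 824095 in Muscle2, 277843 in occipital lobe and 172373 in spinal cord. Nearly all of each sum was miR-486-5p, so that the sums describe this 1 miRNA and not the list. All 5 miRNAs of the list were higher in muscle with TMM and 4 under both scalings. In RPTM both muscle profiles were above both neural profiles in 3 of the 5, all entries of miR-486, against 24.9% of all tested miRNAs. In the other members the sides overlapped. miR-451-5p, the defining miRNA of red blood cells, had 295 RPTM in Muscle1 and 5006 in Muscle2 against 234 and 362 in the neural profiles. miR-144-2-3p had 18.4 and 200 RPTM in muscle against 34.8 and 63.2 in the neural profiles. miR-486-5p, from ANK1, had 449799 and 815651 RPTM in muscle and 276764 and 171594 in the neural profiles, with a log2 fold change of 2.79 ± 0.57 (edgeR adjusted p = 0.00222), and it was called in each alternative, also without Muscle2. The 5 stromal miRNAs, of the clusters of miR-199a and miR-214, were all higher in muscle under both scalings. They summed to 20408 RPTM in Muscle1, 8788 in Muscle2, 423 in occipital lobe and 994 in spinal cord. Over all tested miRNAs, 33.2% were higher in muscle with TMM and 14.9% under both scalings. In the list of white blood cells 4 of 7 were higher with TMM and 2 under both scalings, in the list of smooth muscle 3 of 4 and 0, and the 1 miRNA of endothelium, miR-126-3p, was higher under both.

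The 8 tested epithelial miRNAs of 12 were all called toward muscle with TMM and 4 under both scalings. Over all tested miRNAs these shares were 33.2% and 14.9%. The epithelial list summed to 254 RPTM in Muscle1, 68.0 in Muscle2, 31.3 in occipital lobe and 23.8 in spinal cord. These sums were below the 706 to 14119 RPTM of the other 8 profiles. The hepatocyte miRNAs summed to at most 3.76 RPTM in the 4 profiles, and 1 of 2 was called toward muscle with TMM alone. Of the 5 intestinal miRNAs tested, 1 was called toward muscle with TMM alone, 1 toward neural tissue under both scalings and 3 were not called. The part of other cell types in the differences above was not tested.

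Of the 370 tested miRNAs, 32 (8.65%) were higher in all 4 profiles than in every one of the other 8 profiles. This is a description, and 11 of them were called higher in muscle, 7 higher in neural tissue and 14 in neither. They included miR-128a-3p, miR-128b-3p, miR-128b-5p, miR-149-5p, miR-208b-3p, mir-499-5p and let-7f-5p, which are described above. miR-95-3p had 264 and 488 RPTM in muscle, 80.4 and 132 in the neural profiles and at most 38.0 elsewhere. miR-340-5p had 5764 and 5673 RPTM in muscle, 22905 and 25689 in the neural profiles and at most 5053 elsewhere.

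The 5′ end of a read sets its seed, so the shares of reads that started off the annotated 5′ end were compared in the 129 miRNAs with at least 200 reads in each of the 4 profiles. With 2 profiles a side an exact permutation test cannot give a two-sided p below 0.333, and these shares are given without a test. In 64 of the 129 the sides did not overlap, but the means differed by at least 10 percentage points in only 2 of these.

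mml-miR-409-3p: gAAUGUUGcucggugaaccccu
mml-miR-30a-3p: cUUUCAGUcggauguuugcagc

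For miR-409-3p, 44.2% (95% Wilson interval 41.7 to 46.8) and 44.6% (42.2 to 47.2) of the reads started off the annotated end in muscle, against 18.6% (17.8 to 19.5) in occipital lobe and 29.0% (28.4 to 29.6) in spinal cord. Reads that started 1 base upstream made up 40.1% and 39.9% of all its reads in muscle, 5.81% in occipital lobe and 19.2% in spinal cord. Those that started 1 base downstream made up 4.14% and 4.79% in muscle, 12.8% in occipital lobe, where they were the larger part, and 9.79% in spinal cord. For miR-30a-3p the shares were 14.5% (14.04 to 14.91) and 15.5% (15.1 to 16.0) in muscle, 28.05% (27.4 to 28.7) in occipital lobe and 25.7% (25.1 to 26.3) in spinal cord, nearly all of them 1 base downstream. The next in the order of the gap between the sides were miR-411-5p, miR-151-3p and miR-142-5p. miR-411-5p had 44.9% (43.7 to 46.2), 45.0% (43.6 to 46.5), 50.4% (50.1 to 50.8) and 49.7% (49.3 to 50.1) in Muscle1, Muscle2, occipital lobe and spinal cord. In the same order, miR-151-3p had 18.95% (18.4 to 19.5), 20.7% (20.1 to 21.3), 14.1% (13.7 to 14.6) and 14.8% (14.5 to 15.2). miR-142-5p had 31.3% (28.7 to 34.1), 31.2% (28.4 to 34.0), 44.3% (38.0 to 50.8) and 35.4% (31.6 to 39.3). These intervals cover counting error only.

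Most myomiRs and neuronal miRNAs had too few reads on the other side for this comparison. For miR-9-5p, 96.4% to 99.3% of the reads started at the annotated end in the 4 profiles, and for miR-10b-5p 89.3% to 90.7%. For miR-124a-3p, 70.9% (70.4 to 71.5) of the reads of occipital lobe and 70.6% (69.5 to 71.6) of those of spinal cord started 1 base downstream of the annotated end, and the muscle profiles had 9 and 2 reads. For miR-133c-3p, the reads that started 1 base downstream, at the end annotated for miR-133a-3p, made up 38.2% (38.1 to 38.4) and 36.1% (35.9 to 36.2) in muscle, 28.3% (22.47 to 34.92) in occipital lobe, and 17.0% (15.2 to 18.8) in spinal cord. Both muscle profiles were above both neural profiles. It was not among the 129 because occipital lobe had 198 reads.

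**Figure D5:**
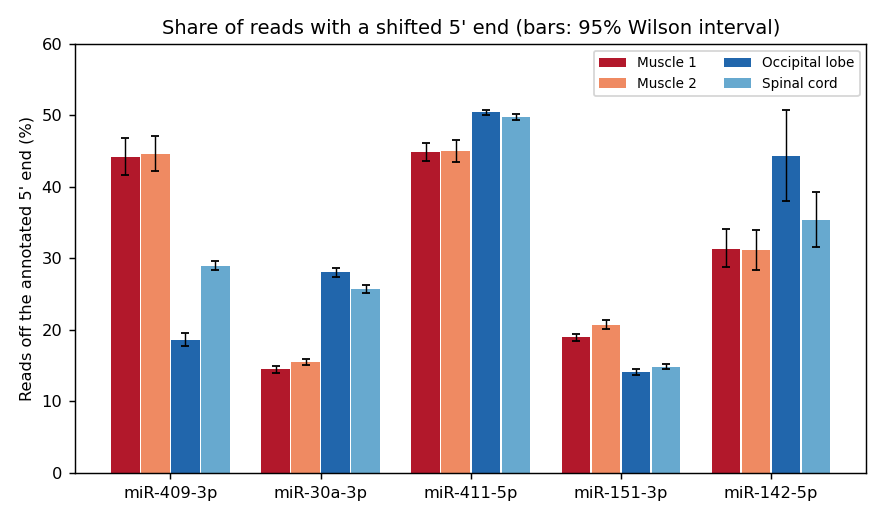
Share of reads off the annotated 5′ end (y axis, %) of the 5 miRNAs with the largest gap between the sides, with 1 bar per profile and 95% Wilson intervals for counting error. miR-409-3p is higher in both muscle profiles and miR-30a-3p in both neural profiles, and the others differ by less than 10 percentage points.

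The 2 arms of a pre-miRNA were compared in 80 pre-miRNAs with at least 200 reads in each of the 4 profiles and with both arms found in the same pre-miRNAs, a restriction chosen after the values were seen. The ratio of the arms did not overlap between the sides in 38 of the 80, and the major arm differed in 1. The 38 hold mir-23a, mir-31, mir-146a, mir-186, mir-192 and mir-497, whose minor arm had no read in any of the 4 profiles. Their ratios, taken with 0.5 added to each count, followed the depth of the major arm alone. The 38 are therefore not a count of pre-miRNAs whose arms differed. In mir-30e the 5p arm had 47.4% (95% Wilson interval 47.0 to 47.9) and 42.9% (42.5 to 43.4) of the reads in muscle, against 60.9% (60.3 to 61.5) in occipital lobe and 59.1% (58.6 to 59.7) in spinal cord. These shares were given without a test. The largest gaps were found in mir-1180, mir-1271, mir-378a, mir-885 and let-7c, where the minor arm had at most 90 reads in a profile. In mir-885 the 5p arm had 99.4% (97.9 to 99.8) and 99.1% (96.9 to 99.8) in muscle, and 83.5% (80.1 to 86.3) and 91.9% (89.2 to 94.0) in the neural profiles. mir-1180 had no 5p read in muscle against 11 and 15 in the neural profiles, and mir-1271 had no 3p read in muscle against 10 in each neural profile. For let-7c, and for the mir-378a entry whose 5p sequence carries the seed of mir-378a-3p, the minor arm had 0 to 8 reads, so that the gap followed the depth of the major arm. mir-339, chosen after its values were seen, had more reads on both arms, and its 5p arm took 45.9% (42.3 to 49.5) and 49.5% (45.4 to 53.6) in muscle against 5.21% (4.49 to 6.04) and 16.1% (14.4 to 17.9) in the neural profiles.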

How the data were processed

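The authors sequenced small RNAs of 12 samples on an Illumina HiSeq 2000, kept reads with high sequencing scores, removed the 3′ adapter, discarded sequences shorter than 18 nucleotides and deposited the counts of unique sequences, without normalization. The profiles had 22118095 to 25579064 valid reads, and intervals and floors from counts cover counting error only. The mature miRNAs and pre-miRNAs were taken from the list of the study, of which 831 pre-miRNAs could be read in the copy used here. From them 1388 mature miRNAs were placed, 7 more were not found in their pre-miRNA, and 1217 different sequences remained. A read was counted for each mature sequence it fell on.

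Counts were fitted with edgeR 4.0.16 in R 4.3.3 on all 12 profiles in 7 groups, with occipital lobe and spinal cord as 1 group, TMM factors on the valid reads and 5 residual degrees of freedom. Seed families were summed and fitted in the same way. Standard errors were derived from the F statistic. DESeq2 1.42.0 and limma 3.58.1 were installed, and DESeq2 served as an alternative. The test was checked on simulated counts. Counting and intervals used Python 3.11.15 (scipy 1.17.1, pandas 2.3.3, numpy 2.4.6).

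The miRNAs named are those of the lists of muscle, neurons, oligodendrocytes and the body axis, the 10 with the largest differences on each side whose profiles did not overlap, the 5 most abundant of each side, 3 seed families of each side with the families that had calls on opposite sides, and the 5 with the largest gaps in read starts and arms. Further examples from the other lists were chosen after their values were seen. The members and the 21 lists were chosen with earlier results of these data known. Neighbouring genes were taken from the RefSeq annotation of T2T-MMU8v2.0, where 67 of 72 pre-miRNAs matched by name, and no genome sequence was used. The alternatives were other scalings, filters, groups and rules of assignment, leaving out 1 profile at a time, and DESeq2.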

Additional observations from a re-analysis of the deposited data

Results flagged for a closer look

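Of the 66 miRNAs named by the rule, 7 were called between the 2 neural tissues, although neither tissue has a replicate. The calls come from the contrast of spinal cord minus occipital lobe in edgeR's quasi-likelihood test with 8 groups, in which each tissue has 1 profile and is assumed to vary like the tissues with 2. Among the 370 tested miRNAs, 11 passed an adjusted p of 0.05, and all 11 were higher in spinal cord. miR-10b-5p differed by 5.27 on the log2 scale (edgeR adjusted p = 0.00416) and miR-10a-5p by 5.81 (edgeR adjusted p = 0.00255). miR-10b-3p had no read in occipital lobe and 35 in spinal cord, at least 11.2-fold higher against a floor of 3 reads in occipital lobe, and its fitted log2 difference of 6.97 (edgeR adjusted p = 0.0285) depends on the prior count and is no bound. The log2 differences were 2.91 for miR-133a-3p and 2.91 for miR-133c-3p (edgeR adjusted p = 0.00694), which share nearly all reads, 2.85 for miR-219-2-3p (edgeR adjusted p = 0.0285) and 2.60 for miR-143-3p (edgeR adjusted p = 0.0298). miR-133c-3p thus had 710 RPTM in spinal cord and 86.0 in occipital lobe, both far below muscle. The cause was not tested.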

How the results depend on the processing

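With valid reads alone, 55 miRNAs and 45 seed families were higher in muscle, against 123 and 84 with TMM. The direction turned for 10 of the 123, among them 2 of those named by the rule, let-7f-5p (log2 fold change -0.17) and miR-25-3p (-0.12). A mean of at least 50 RPTM left fewer features to test, with 69 miRNAs higher in muscle and 65 seed families higher in neural tissue, against 118 with the lower minimum. The fit on the 4 profiles alone, with 2 residual degrees of freedom, called 78 miRNAs higher in muscle. Identical reads alone, with fewer features tested, gave 83 miRNAs and 75 seed families higher in neural tissue. Leaving out 1 profile gave 100 to 123 miRNAs higher in muscle and 97 to 123 higher in neural tissue, and 62 to 94 and 87 to 105 seed families. The other counts stayed within 1.5 times the values reported, among them 126 and 128 miRNAs with DESeq2 and 105 and 141 with each read counted only for the nearest mature miRNA, an alternative chosen after seeing the data. DESeq2 did not call miR-488-3p (adjusted p = 0.0502). The DLK1-DIO3 list had 37 calls, but 15 with the higher minimum and 21 with identical reads, where fewer members were tested. The 2 miRNAs with different read starts and the 1 pre-miRNA with another major arm stayed 2 and 1 at a minimum of 1000 reads. No paired analysis was possible because occipital lobe and spinal cord carry no replicate numbers and so share none with muscle. With 1 read worth about 0.4 RPTM, miRNAs without a read in muscle have only a lower bound.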
